A study of Homo sapiens with 64 samples.

Results

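The levels of 39 genes of amino acid supply and of the stress response governed by the transcription factor ATF4 were followed in BEAS-2B cells, a bronchial epithelial line of human origin that has been immortalised, under 2 drugs inhaled in asthma. They were chosen by name, with earlier results of these data known. Each was represented by the probe set that carried its symbol with the highest mean over 64 Affymetrix arrays. Of the 39 genes listed, 37 were measured among 18132 genes tested. GPT2, a mitochondrial aminotransferase, matched no probe set used here, and the probe sets of CBS, a transsulfuration enzyme, also match a near-identical gene copy and were left out. The cells had been kept overnight without serum. They were then left untreated, given the glucocorticoid budesonide at 100 nM, the long-acting beta2-agonist formoterol at 10 nM, or both drugs (the combination), and collected after 1, 2, 6 and 18 h. Each of the 16 groups held 4 arrays, called independent determinations in the labels, all from this single line. The p-values below measure the spread between these samples.

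ATF4 is translated when phosphorylation of the initiation factor eIF2 slows protein synthesis, as happens under amino acid shortage, endoplasmic reticulum stress or oxidative stress. The protein, often paired with a C/EBP family member, binds composite elements in genes that make amino acids, import them, charge tRNA or limit the stress itself. Because ATF4 is set largely by translation, the level of its mRNA need not follow its activity. Glucocorticoids act through a nuclear receptor that switches genes on and off, and beta2-agonists raise cyclic AMP.

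The values are log2 expression. Array medians lay between 4.87 and 4.95. With 4 arrays a group, their number limits the precision. The drugs left their usual marks: TSC22D3 and PER1, glucocorticoid-induced genes, were higher with budesonide at every time. FKBP5, another such gene, was higher with budesonide at 2, 6 and 18 h, but at 1 h its difference was 0.26 (adjusted p = 0.72 in limma). PER1 was also higher with formoterol at 1 and 2 h, by 1.12 and 1.47 (adjusted p = 0.018 and 0.000163). The cyclic AMP-induced nuclear receptor genes NR4A1, NR4A2 and NR4A3 were higher with formoterol at 1 and 2 h. Of 7 epithelial markers, KRT7, KRT8 and KRT18 lay at or above the median of all values, 4.90, in untreated cells, whereas KRT5, KRT19, EPCAM and CDH1 lay below it. The mesenchymal genes VIM, CDH2 and FN1 lay between 10.20 and 13.03, and the 3 leukocyte and 3 endothelial markers all lay below the median. Arrays of the same replicate number tended to deviate together. A fit that blocks on the number is given where the numbers paired the arrays and the count moved by over 1.5 times.

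The composite elements named above are short sites in which part of a C/EBP site adjoins part of an ATF site. The letters TGATGNAA, searched on both strands from 250 bases before to 50 bases after each RefSeq start (build GRCh38.p14), occurred in 9 of the 31 listed genes with a window in the RefSeq table. Of all 27305 genes with a window, 4.46% held them. Of these 9 matches, 5 are shown because they lie wholly upstream of a start, each with 24 bases on either side, read along the gene's strand, with the matched letters in capitals. They come from chr6:150866333-150866388 (plus strand, first matched base at -129 from the start), chr7:97872445-97872500 (minus strand, -68), chr10:99430791-99430846 (minus strand, -198), chr15:40953238-40953293 (plus strand, -209) and chr19:46784880-46784935 (minus strand, -97), in that order.
MTHFD1L: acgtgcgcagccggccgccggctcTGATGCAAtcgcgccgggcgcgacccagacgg
ASNS: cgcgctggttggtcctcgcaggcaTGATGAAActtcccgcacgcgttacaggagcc
GOT1: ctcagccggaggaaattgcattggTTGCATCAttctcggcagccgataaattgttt
CHAC1: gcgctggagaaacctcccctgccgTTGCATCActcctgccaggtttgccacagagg
SLC1A5: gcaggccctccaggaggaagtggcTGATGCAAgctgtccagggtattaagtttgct
In GOT1 and CHAC1 the capitals are the reverse complement of the motif as written. The MTHFD1L site lies at -129, -90 and 25 from different RefSeq starts of that gene. The other genes with a match, SLC1A4, SLC38A1, SLC3A2 and SLC7A1, held it across or after the start. Among measured genes with a window, the letters occurred in 8 of the 16 that fell with budesonide at 18 h and in 1 of the other 14, CHAC1. The cyclic AMP response element TGACGTCA occurred in 1 of the 31, PPP1R15A, against 2.25% of all genes, and the glucocorticoid response element in 0 of 31, against 2.87%. PSPH, SHMT2, SLC7A11, NUPR1, ALDH1L2, EIF4EBP1, PYCR1 and GPT2 had no window in the table. A match is a run of letters and not a shown binding site, and its part in the changes was not tested.

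By 18 h budesonide had lowered 19 of the 37 genes, and formoterol raised 4 transporters, MTHFD2, CTH and STC2 at 2 h and 4 transporters and MTHFD1L at 6 h. Genes were called at a Benjamini-Hochberg adjusted p under 0.05 in limma, adjusted over all genes tested, and "rose" and "fell" below are used of called changes. With budesonide at 1 h 2 genes rose and 1 fell (0.998% of all genes were called in either direction), and at 2 h 3 rose and 2 fell (3.94%). At 6 h 3 rose and 6 fell (14.2% of all genes, with 8.12% lower). At 18 h 5 rose and 19 fell, which made 64.9% of the 37 measured genes against 18.3% of all genes, of which 8.56% rose and 9.78% fell. All genes were not matched to the 37 for brightness. Of the 37, CHAC1, SLC7A8 and ALDH1L2 alone had a mean over all arrays below 4.90, the median of all values. The median change at 18 h was -0.23 over the 37 genes and 0.03 over all genes. With formoterol at 1 h 1 gene rose and 1 fell (1.34% of all genes). At 2 h 7 rose (4.6% of all genes, with 2.31% higher), at 6 h 5 rose and 3 fell (4.81%, with 2.76% higher), and at 18 h 3 fell (1.11%). Blocking on the replicate number at each time gave 5 calls in place of 2 at 1 h and 12 in place of 7 at 2 h. The share of all genes called with a block was not counted, here or below, so blocked counts have no share beside them. With the combination at 1 h 2 rose and 4 fell (2.76% of all genes). At 2 h 5 rose and 5 fell (9.49%, with 3.84% higher and 5.65% lower), at 6 h 6 rose and 4 fell (18.6%, with 8.61% higher), and at 18 h 4 rose and 19 fell (21%, with 10.7% lower). All 3 sets of comparisons share the untreated arrays. A lower level in bulk RNA cannot be told apart from fewer cells that carry the transcript.

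**Figure D1:**
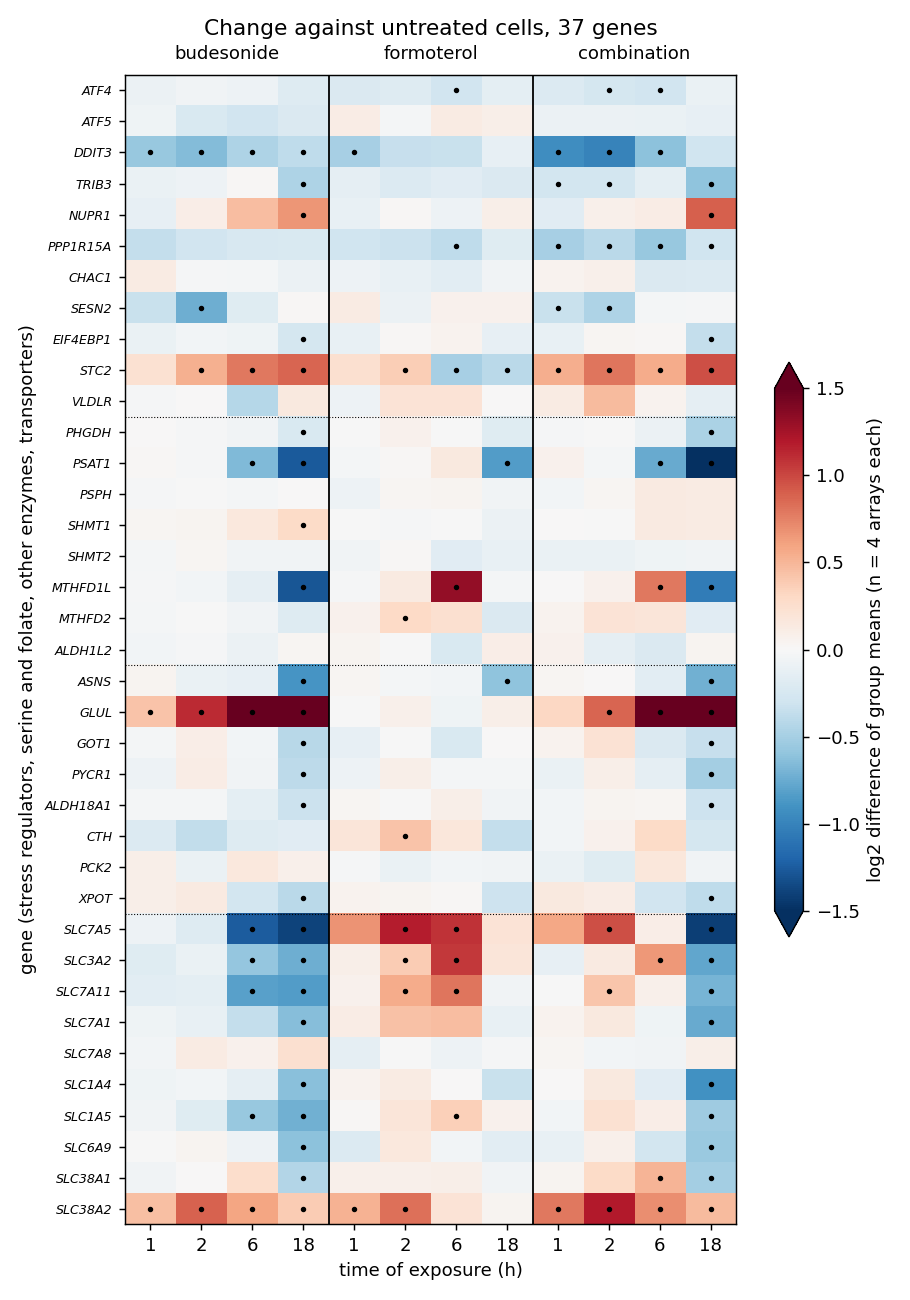
Differences from untreated cells in log2 units for the 37 measured genes (vertical axis, grouped by role) at 1, 2, 6 and 18 h of budesonide, formoterol and the combination (horizontal axis); red is higher, blue is lower, the scale stops at 1.5 in either direction, and dots mark called changes. Blue cells with dots fill the 18 h columns of budesonide and of the combination, where 19 genes fell in each, while formoterol at 18 h has 3.

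Of the 11 stress regulators, ATF4 itself moved little. Its mRNA was not called with budesonide at any time, with differences from -0.19 to -0.06. It fell by 0.28 ± 0.09 (SE, n = 4 arrays a group) with formoterol at 6 h (adjusted p = 0.0493). With the combination it fell by 0.27 ± 0.09 at 2 h (adjusted p = 0.0449) and by 0.29 ± 0.09 at 6 h (adjusted p = 0.0147). Each of these 3 calls was lost when single arrays were left out. Without untreated replicate 3 the differences were -0.22, -0.16 and -0.23, with adjusted p of 0.253, 0.375 and 0.1. At 2 h, however, replicate 3 was the highest ATF4 array in all 4 treatments, by 0.35, and the numbers paired these arrays. Leaving out its untreated array alone therefore unbalances that comparison. With a replicate block at each time all 3 calls were kept. The related factor ATF5 was not called against untreated cells, and its 12 differences lay between -0.28 and 0.13.

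DDIT3, which encodes the stress factor CHOP, fell early with budesonide and with both drugs, and at 1 h with formoterol. At 2 h its log2 expression was 5.74, 5.81, 6.12 and 5.82 on the untreated arrays, 5.16, 5.16, 5.45 and 5.13 with budesonide, 5.40, 5.51, 5.75 and 5.47 with formoterol and 4.66, 4.99, 4.83 and 5.03 with the combination. All combination arrays lay below all arrays of the other groups, and all budesonide arrays below all untreated ones. Against untreated cells budesonide lowered it by 0.65 ± 0.13 (adjusted p = 0.000248) and the combination by 1.00 ± 0.13 (adjusted p = 7.23e-09). At 1 h the changes were -0.57 ± 0.13 with budesonide, -0.49 ± 0.13 with formoterol and -0.93 ± 0.13 with the combination (adjusted p = 0.00494, 0.0235 and 1.16e-07). The first of these was not called without budesonide replicate 3 (-0.47, adjusted p = 0.0933), and the formoterol call was lost in 6 of 8 fits that left out 1 array (-0.49 to -0.46). At 2 h formoterol alone differed by -0.34, which was not called in this fit without a replicate block (adjusted p = 0.135). Each formoterol array at 2 h nevertheless lay below the untreated array of its number, and the numbers paired these arrays. The non-call thus does not show that formoterol left DDIT3 unchanged. The combination lay below formoterol at 2 h by 0.65 ± 0.13 (adjusted p = 0.000176), but its difference from formoterol at 1 h (-0.44, adjusted p = 0.0787) and from budesonide at 1 and 2 h (-0.36 and -0.35, adjusted p = 0.282 and 0.14) was not called. At 6 h the change with budesonide was -0.47 ± 0.13 (adjusted p = 0.00589), and all budesonide arrays lay below all untreated ones. By 18 h DDIT3 read 5.86, 5.65, 5.54 and 5.44 with budesonide against 5.86, 6.26, 5.87 and 6.02 untreated, and the ranges touched. The difference was then -0.38 ± 0.13 (adjusted p = 0.0275, and 0.154 without untreated replicate 2, at -0.29).

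SESN2, a leucine-sensing inhibitor of the growth kinase mTORC1, fell for a short time with budesonide. At 2 h it read 5.55, 5.45, 5.61 and 5.55 in untreated cells, 4.58, 4.89, 4.93 and 4.81 with budesonide, 5.48, 5.51, 5.49 and 5.32 with formoterol and 5.16, 5.20, 5.06 and 4.90 with the combination. The budesonide and combination arrays lay below all untreated arrays. The changes were -0.74 ± 0.10 with budesonide (adjusted p = 2.68e-08) and -0.46 ± 0.10 with the combination (adjusted p = 0.000299). A second probe set of SESN2 gave -0.10 and -0.13. At 6 and 18 h no treatment changed the gene by a called amount.

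TRIB3, a pseudokinase that restrains ATF4 and DDIT3, fell with budesonide at 18 h and with the combination at 1, 2 and 18 h. At 18 h its untreated arrays read 7.78, 7.72, 7.58 and 7.64, those with budesonide 7.24, 7.28, 7.12 and 7.23, those with formoterol 7.48, 7.45, 7.54 and 7.38 and those with both drugs 7.17, 7.02, 7.04 and 7.07. All untreated arrays lay above all others. The changes were -0.46 ± 0.08 with budesonide (adjusted p = 6.22e-06) and -0.61 ± 0.08 with the combination (adjusted p = 9.15e-09), and -0.22 with formoterol, which was not called. The gene's other probe set showed 0.08 with budesonide and -0.13 with the combination. With the combination the change was -0.27 ± 0.08 at 1 h (adjusted p = 0.0475) and -0.28 ± 0.08 at 2 h (adjusted p = 0.0131). The call at 1 h was lost in 7 of 8 fits without 1 array, such as that without untreated replicate 1 (-0.25, adjusted p = 0.164), and with array centring (-0.26, adjusted p = 0.0965). The call at 2 h was lost without untreated replicate 2 (-0.26, adjusted p = 0.0543). PPP1R15A (GADD34), the phosphatase subunit that reverses eIF2 phosphorylation, fell with the combination at all 4 times, by 0.50, 0.40, 0.56 and 0.30. It also fell with formoterol at 6 h by 0.38 ± 0.10, a call lost without untreated replicate 2 (-0.34, adjusted p = 0.0812). It was not called with budesonide, where its differences at 1, 2, 6 and 18 h were -0.35, -0.29, -0.24 and -0.23. At 1 and 18 h all budesonide arrays lay below all untreated ones. These non-calls do not show that budesonide left PPP1R15A unchanged. The combination's calls at 2 and 18 h were lost on leaving out combination replicate 3 at 2 h (-0.32, adjusted p = 0.0512) and, among others, untreated replicate 1 at 18 h (-0.26, adjusted p = 0.103). EIF4EBP1, a brake on cap-dependent translation, fell at 18 h by 0.27 ± 0.06 with budesonide and by 0.35 ± 0.06 with the combination.

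NUPR1 and STC2 ran the other way. NUPR1, a small stress-induced chromatin protein, read 5.02, 5.05, 4.26 and 4.89 in untreated cells at 18 h, 5.27, 5.59, 4.94 and 6.07 with budesonide, 4.85, 5.04, 4.76 and 4.93 with formoterol and 5.59, 5.88, 5.05 and 6.28 with both. In each of these groups replicate 3 was the lowest array, and the untreated range overlapped those of budesonide and of the combination. It rose by 0.67 ± 0.18 with budesonide (adjusted p = 0.00376) and by 0.90 ± 0.18 with the combination (adjusted p = 5.85e-05). The first call was lost without untreated replicate 3 (0.48, adjusted p = 0.0609) or budesonide replicate 4 (0.46, adjusted p = 0.0733). Each budesonide array nevertheless lay above the untreated array of its number, and the numbers paired these arrays.

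STC2, a secreted glycoprotein induced by stress, rose with budesonide and fell with formoterol at the later times. At 6 h it read 8.94, 9.12, 9.17 and 9.12 in untreated cells, 9.80, 9.90, 9.77 and 10.04 with budesonide, 8.62, 8.60, 8.77 and 8.37 with formoterol and 9.56, 9.59, 9.63 and 9.77 with both. No formoterol array reached an untreated one, and the combination arrays lay between the untreated arrays and nearly all budesonide arrays. The changes at 6 h were 0.79 ± 0.11, -0.50 ± 0.11 and 0.55 ± 0.11 (adjusted p = 8.56e-08, 0.00183 and 9.13e-05). With formoterol the difference was 0.36 ± 0.11 at 2 h (adjusted p = 0.0423) and -0.41 ± 0.11 at 18 h (adjusted p = 0.0495). Both of these calls were lost in several fits without 1 array, such as those without formoterol replicate 2 (0.27 and -0.36, adjusted p = 0.301 and 0.181). At 18 h the untreated arrays read 9.19, 9.23, 9.19 and 9.45, those with budesonide 10.08, 10.13, 10.12 and 10.25, those with formoterol 8.82, 8.70, 8.89 and 9.02 and those with both 10.24, 10.19, 10.29 and 10.20. Budesonide raised STC2 by 0.88 ± 0.11 and the combination by 0.96 ± 0.11, and the combination exceeded formoterol by 1.37 ± 0.11 (adjusted p = 1.04e-15). CHAC1, which degrades glutathione, and VLDLR, a lipoprotein receptor, were not called against untreated cells.

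**Figure D2:**
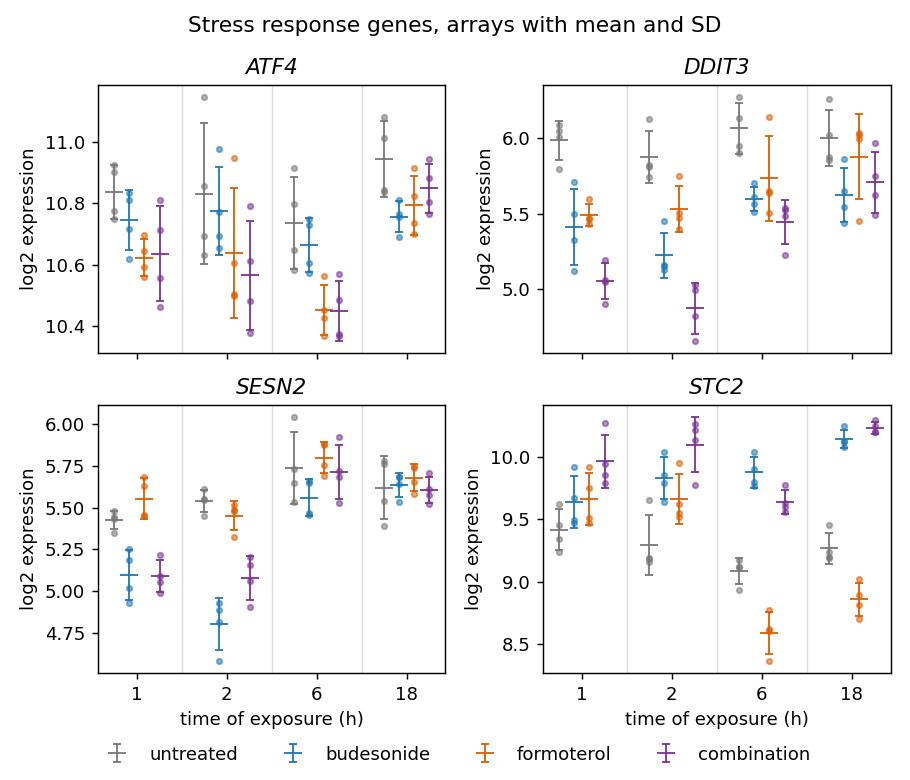
Log2 expression (vertical axis, a scale for each gene) of ATF4, DDIT3, SESN2 and STC2 by time of exposure in hours (horizontal axis) in untreated, budesonide, formoterol and combination cells; points are arrays and bars show the mean and SD of 4. DDIT3 has its lowest means, 5.05 and 4.88, in the combination at 1 and 2 h, SESN2 dips with budesonide at 2 h to between 4.58 and 4.93, and STC2 separates into high groups with budesonide and low groups without it at 18 h.

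Of the 8 enzymes of serine synthesis and folate one-carbon metabolism, 3 fell and 1 rose with budesonide at 18 h. PSAT1, the aminotransferase of the serine pathway, and MTHFD1L fell most. At 18 h PSAT1 read 9.03, 9.11, 8.69 and 8.92 in untreated cells, 7.62, 7.80, 7.59 and 7.74 with budesonide, 8.51, 8.19, 8.24 and 7.47 with formoterol and 7.32, 7.36, 7.33 and 7.43 with both. All treated arrays lay below all untreated ones, and formoterol replicate 4 lay well below the other formoterol arrays. The changes were -1.25 ± 0.12 with budesonide (adjusted p = 2.59e-13), -0.84 ± 0.12 with formoterol (adjusted p = 2.73e-06) and -1.58 ± 0.12 with the combination (adjusted p = 3.3e-17). At 6 h PSAT1 read 9.01, 8.91, 8.80 and 8.67 untreated, 8.46, 8.15, 7.91 and 8.21 with budesonide, 8.98, 8.98, 9.10 and 8.90 with formoterol and 8.08, 8.07, 8.13 and 8.09 with both. It had thus already fallen with budesonide (-0.67 ± 0.12) and the combination (-0.76 ± 0.12), while formoterol arrays overlapped the untreated ones. The effect of formoterol at 18 h lay 0.98 ± 0.17 below its effect at 6 h (adjusted p = 0.000103). All 8 probe sets of PSAT1 were lower at 18 h, from -0.36 to -1.36 with budesonide and from -0.18 to -0.85 with formoterol.

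MTHFD1L, the mitochondrial enzyme that releases formate from the folate cycle, moved in opposite directions with the drugs and times. At 6 h it read 9.83, 9.54, 9.37 and 9.49 untreated, 9.68, 9.23, 9.18 and 9.60 with budesonide, 10.97, 10.88, 10.85 and 10.78 with formoterol and 10.38, 10.24, 10.29 and 10.48 with both. All formoterol arrays lay above all combination arrays, which lay above all others. Formoterol raised it by 1.31 ± 0.10 (adjusted p = 4.74e-16), and the combination lay 0.92 ± 0.10 above budesonide and 0.52 ± 0.10 below formoterol (adjusted p = 1.24e-10 and 4.29e-05). At 18 h the untreated arrays read 9.56, 9.62, 9.44 and 9.63, those with budesonide 8.16, 8.32, 8.25 and 8.40, those with formoterol 9.71, 9.50, 9.44 and 9.48 and those with both 8.27, 8.66, 8.33 and 8.79. Formoterol then overlapped untreated cells (-0.03), and the changes with budesonide and with the combination were -1.28 ± 0.10 and -1.05 ± 0.10 (adjusted p = 1.47e-16 and 2.4e-13). Between 6 and 18 h the effect of the combination moved by -1.84 ± 0.14 (adjusted p = 5.6e-16), and all 4 probe sets followed at both times.

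The remaining enzymes of this set moved less. PHGDH, the first enzyme of serine synthesis, fell at 18 h by 0.23 ± 0.07 with budesonide, a call lost without untreated replicate 1 (-0.16, adjusted p = 0.152), and by 0.48 ± 0.07 with the combination (adjusted p = 4.61e-07). SHMT1, the cytosolic serine hydroxymethyltransferase, rose by 0.28 ± 0.08 with budesonide at 18 h. MTHFD2, a mitochondrial folate dehydrogenase, rose by 0.30 ± 0.08 with formoterol at 2 h (adjusted p = 0.0109), a call lost without untreated replicate 1 (0.25, adjusted p = 0.0829). PSPH, SHMT2 and ALDH1L2 were not called against untreated cells, and their differences lay between -0.23 and 0.14.

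ASNS, which makes asparagine and is a classical ATF4 target, was called against untreated cells at 18 h and at no earlier time. At 18 h it read 7.95, 8.11, 8.10 and 8.01 untreated, 7.13, 7.25, 7.10 and 7.13 with budesonide, 7.57, 7.45, 7.44 and 7.27 with formoterol and 7.17, 7.35, 7.39 and 7.36 with both. All treated arrays lay below all untreated ones, and all budesonide arrays below all formoterol ones. The changes were -0.89 ± 0.08, -0.61 ± 0.08 and -0.72 ± 0.08 (adjusted p = 4.07e-14, 6.14e-07 and 4.34e-11). The combined effect was thus smaller than the sum of the single effects, and the interaction of the drugs was 0.77 ± 0.11 (adjusted p = 2.29e-05). Of all genes, 0.276% had a called interaction at 18 h, and ASNS was the 1 called among the 37. All 4 probe sets of ASNS read lower in these 3 comparisons, with differences of -0.89 to -0.61. Untreated cells themselves read higher at 18 h than at 1 h, when their arrays read 7.79, 7.67, 7.60 and 7.72. That difference was 0.34 ± 0.08 (adjusted p = 0.0249), the 1 called among the 37 (0.364% of all genes, and 3 calls on blocking over all times). It was not called in 6 of 8 fits without 1 array (0.31 to 0.37).

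GLUL, which makes glutamine, rose more than any other gene of the 37 in the comparisons with untreated cells. At 6 h it read 10.19, 10.27, 10.38 and 10.38 untreated, 12.39, 12.43, 12.48 and 12.19 with budesonide, 10.24, 10.06, 10.29 and 10.37 with formoterol and 12.25, 12.26, 12.33 and 11.91 with both. Budesonide raised it by 2.07 ± 0.10 and the combination by 1.88 ± 0.10 (adjusted p = 2.27e-26 and 9.62e-25). Formoterol arrays overlapped the untreated ones. With budesonide the change was 0.43 ± 0.10 at 1 h, a call lost without budesonide replicate 2 (0.37, adjusted p = 0.0785) or 3 (0.38, adjusted p = 0.0553), 1.12 ± 0.10 at 2 h and 1.63 ± 0.10 at 18 h. Sizes differed between its 5 probe sets, from 0.40 to 2.18 with budesonide at 6 h.

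**Figure D3:**
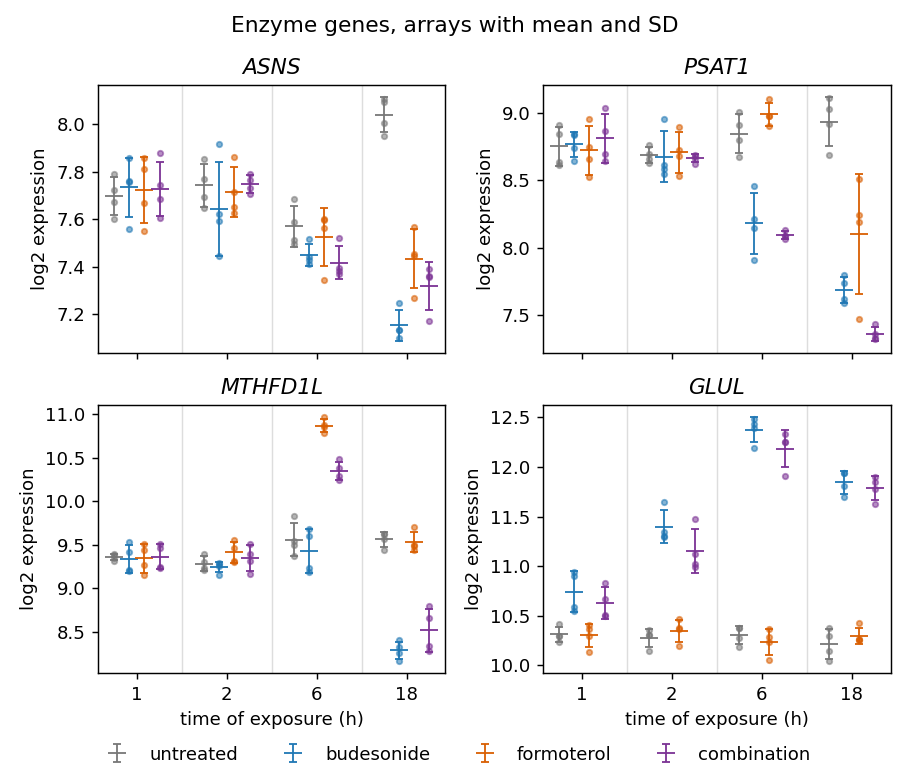
Log2 expression (vertical axis, a scale for each gene) of ASNS, PSAT1, MTHFD1L and GLUL by time of exposure in hours (horizontal axis) in the 4 treatments; points are arrays and bars show the mean and SD of 4. ASNS separates from untreated cells at 18 h, MTHFD1L is highest with formoterol at 6 h and lowest with budesonide at 18 h, and GLUL is high in both budesonide-containing groups.

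Other enzymes fell at 18 h by smaller amounts. GOT1, an aspartate aminotransferase, fell by 0.42 ± 0.12 with budesonide, and PYCR1 and ALDH18A1, which make proline, fell by 0.39 ± 0.09 and 0.32 ± 0.06. With the combination these changes were -0.34 ± 0.12, -0.51 ± 0.09 and -0.30 ± 0.06, and that of GOT1 was not called without untreated replicate 3 (-0.29, adjusted p = 0.108). XPOT, which exports tRNA from the nucleus, fell by 0.41 ± 0.11 with budesonide (adjusted p = 0.00406) and by 0.38 ± 0.11 with the combination (adjusted p = 0.00776, and 0.0505 without untreated replicate 1, at -0.31). CTH, which makes cysteine, rose by 0.42 ± 0.12 with formoterol at 2 h (adjusted p = 0.0182, and 0.136 without formoterol replicate 3, at 0.33). PCK2, the mitochondrial PEP carboxykinase, was not called. In all, 8 of the 37 genes were never called in the 12 comparisons with untreated cells, with differences between -0.43 and 0.47.

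Of 10 transporters measured, 8 fell and 1 rose with budesonide at 18 h (9.78% of all genes fell and 8.56% rose), and 4 rose with formoterol at 2 h and 4 at 6 h (2.31% and 2.76% of all genes rose). SLC7A5 and SLC3A2 encode the light and heavy chains of LAT1, which imports leucine and other large neutral amino acids. SLC7A5 read 9.40, 9.13, 8.90 and 8.75 untreated at 6 h, 8.13, 7.78, 7.51 and 7.78 with budesonide, 10.42, 10.23, 9.93 and 9.93 with formoterol and 9.61, 8.97, 9.00 and 9.01 with both. All formoterol arrays lay above and all budesonide arrays below all others, and the combination overlapped the untreated arrays. Budesonide lowered it by 1.24 ± 0.21 (adjusted p = 7.4e-06), formoterol raised it by 1.08 ± 0.21 (adjusted p = 0.000307), and the combination differed by 0.10, which was not called. The interaction was 0.26 ± 0.30 (adjusted p = 1).

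At 2 h formoterol raised SLC7A5 by 1.18 ± 0.21 and the combination by 0.96 ± 0.21 (adjusted p = 6.32e-05 and 0.000783). At 18 h its arrays read 8.72, 8.56, 8.28 and 8.21 untreated, 7.50, 7.35, 6.52 and 6.86 with budesonide, 9.01, 8.76, 8.47 and 8.35 with formoterol and 7.45, 7.09, 6.80 and 6.79 with both. The budesonide and combination arrays lay below all others, at -1.38 ± 0.21 and -1.41 ± 0.21 (adjusted p = 6.01e-07 and 3.35e-07). The second probe set of SLC7A5 did not share the fall with budesonide, at -0.0016 at 6 h and 0.04 at 18 h. With formoterol at 2 and 6 h it gave 0.44 and 0.35.

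SLC3A2 also rose with formoterol and fell with budesonide. At 6 h it read 8.85, 9.12, 9.34 and 9.27 untreated, 8.41, 8.57, 8.57 and 8.70 with budesonide, 10.02, 10.03, 10.47 and 10.31 with formoterol and 9.81, 9.67, 9.85 and 9.85 with both. The 4 groups did not overlap. The changes were -0.58 ± 0.10, 1.07 ± 0.10 and 0.65 ± 0.10 (adjusted p = 2.59e-06, 3.23e-13 and 1.47e-07), and all 7 probe sets lay within -0.71 to -0.57 with budesonide and 1.05 to 1.10 with formoterol. At 18 h formoterol was no longer called, and budesonide and the combination lay below untreated cells by 0.73 ± 0.10 and 0.77 ± 0.10 (adjusted p = 9.91e-09 and 1.38e-09). The combination's effect thus turned from a rise to a fall between 6 and 18 h, a difference of -1.43 ± 0.14 (adjusted p = 1.65e-12).

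SLC7A11, the cystine importer that pairs with the same heavy chain, read 8.63, 8.05, 8.08 and 8.39 untreated at 6 h, 7.93, 7.09, 7.35 and 7.51 with budesonide, 9.31, 8.78, 9.03 and 9.23 with formoterol and 8.63, 7.88, 8.27 and 8.66 with both. As with SLC7A5, formoterol arrays lay above and budesonide arrays below all untreated ones, and the combination overlapped them. The changes were -0.82 ± 0.13 and 0.80 ± 0.13 for the single drugs (adjusted p = 9.3e-07 and 5.96e-06) and 0.07 for both. At 18 h the untreated arrays read 8.43, 8.21, 8.22 and 8.19, those with budesonide 7.45, 7.33, 7.51 and 7.41, those with formoterol 8.20, 7.93, 8.27 and 8.42 and those with both 7.64, 7.54, 7.61 and 7.46. The budesonide-containing groups lay below the others, at -0.84 ± 0.13 and -0.70 ± 0.13 (adjusted p = 4.4e-07 and 1.54e-05). Of its 3 probe sets, 1 did not fall with budesonide at 6 h (0.04), and all fell or read lower at 18 h.

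**Figure D4:**
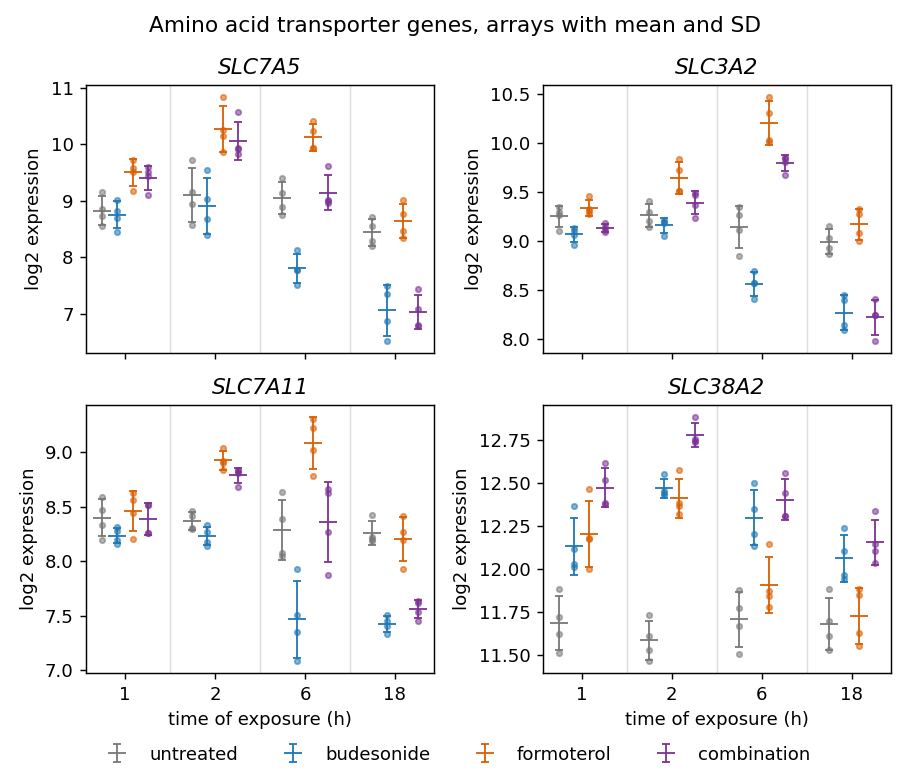
Log2 expression (vertical axis, a scale for each gene) of the transporter genes SLC7A5, SLC3A2, SLC7A11 and SLC38A2 by time of exposure in hours (horizontal axis) in the 4 treatments; points are arrays and bars show the mean and SD of 4. At 6 h formoterol lies above and budesonide below untreated cells for SLC7A5, SLC3A2 and SLC7A11, at 18 h both budesonide-containing groups lie low, and SLC38A2 is highest in the combination at 2 h.

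SLC1A5, an exchanger of glutamine and other neutral amino acids, and SLC1A4, an exchanger of small neutral amino acids, fell with budesonide. SLC1A5 read 7.49, 7.42, 7.45 and 7.31 untreated at 18 h, 6.90, 6.69, 6.51 and 6.69 with budesonide, 7.72, 7.45, 7.48 and 7.29 with formoterol and 6.97, 6.97, 6.97 and 6.65 with both. SLC1A4 read 7.58, 7.37, 7.13 and 7.21 untreated, 6.86, 6.71, 6.62 and 6.60 with budesonide, 7.23, 7.03, 6.86 and 6.85 with formoterol and 6.43, 6.63, 6.02 and 6.58 with both. For each gene the budesonide and combination arrays lay below all untreated ones. SLC1A5 changed by -0.72 ± 0.11 and -0.53 ± 0.11 (adjusted p = 4.51e-07 and 0.000135) and SLC1A4 by -0.63 ± 0.14 and -0.91 ± 0.14 (adjusted p = 0.000631 and 7.72e-07). At 6 h SLC1A5 fell by 0.57 ± 0.11 with budesonide, and its rise of 0.36 ± 0.11 with formoterol (adjusted p = 0.0398) was lost in several fits, as without formoterol replicate 1 (0.26, adjusted p = 0.285).

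SLC7A1, which imports arginine and lysine, read 8.02, 8.11, 8.14 and 7.94 untreated at 18 h, 7.67, 7.28, 7.36 and 7.35 with budesonide, 8.06, 8.00, 8.01 and 7.69 with formoterol and 7.50, 7.26, 7.19 and 7.22 with both. The budesonide-containing groups lay below all others, by 0.64 ± 0.17 and 0.76 ± 0.17 from untreated cells (adjusted p = 0.00445 and 0.000495). Of its 4 probe sets, 3 were lower with budesonide and 1 was higher (0.31). SLC6A9, a glycine transporter, read 5.89, 5.69, 5.57 and 5.18 untreated, 5.28, 4.95, 5.07 and 4.56 with budesonide, 5.43, 5.49, 5.25 and 5.52 with formoterol and 5.12, 5.33, 5.08 and 4.59 with both. Its ranges overlapped, with replicate 4 the lowest in 3 of the groups. The changes were -0.61 ± 0.15 and -0.56 ± 0.15 (adjusted p = 0.00116 and 0.00314), the second was not called without combination replicate 4 (-0.41, adjusted p = 0.0507), and the mean of its 7 probe sets gave -0.08 and -0.09. SLC7A8, the light chain of LAT2, was not called.

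The sodium-coupled glutamine carriers SLC38A1 and SLC38A2 were the transporters that rose with the combination at 6 h together with SLC3A2. SLC38A2 rose with budesonide at every time. At 2 h it read 11.47, 11.53, 11.73 and 11.61 untreated, 12.45, 12.43, 12.55 and 12.44 with budesonide, 12.32, 12.37, 12.58 and 12.39 with formoterol and 12.75, 12.74, 12.88 and 12.76 with both. All treated arrays lay above all untreated ones and all combination arrays above those of either drug. The changes were 0.88 ± 0.09, 0.83 ± 0.09 and 1.20 ± 0.09 (adjusted p = 4.87e-11, 4.17e-10 and 3.08e-16). The interaction of -0.52 ± 0.13 was called at 2 h (adjusted p = 0.0462; 0.59% of all genes), and the call was lost in 13 of 16 fits without 1 array (-0.53 to -0.46). All 3 probe sets rose with each treatment at 2 h, from 0.76 to 1.31.

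SLC38A2 remained high with budesonide at 6 and 18 h (0.59 ± 0.09 and 0.38 ± 0.09), when the formoterol differences, 0.20 and 0.05, were not called. At 1 h it rose by 0.45 ± 0.09 with budesonide (adjusted p = 0.0504 without budesonide replicate 3, at 0.37) and by 0.52 ± 0.09 with formoterol. SLC38A1 rose by 0.50 ± 0.12 with both drugs at 6 h (adjusted p = 0.00096). The untreated arrays then read 10.33, 10.22, 10.50 and 10.46, the budesonide arrays 10.79, 10.55, 10.66 and 10.55 and the combination arrays 10.89, 10.68, 11.12 and 10.84. All budesonide and combination arrays lay above all untreated ones. The difference with budesonide, 0.26, was not called (adjusted p = 0.164), nor was that of the combination from budesonide, 0.24 (adjusted p = 0.284). At 18 h the gene fell by 0.44 ± 0.12 with budesonide and by 0.52 ± 0.12 with both, and between these times the combination's effect moved by -1.02 ± 0.17 (adjusted p = 7.73e-06).

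Setting the combination against each drug showed how far the second drug moved these genes. Against budesonide at 1 h 1 gene rose (1.47% of all genes were called), at 2 h 5 rose (4.38%, with 2.83% higher), and at 6 h 6 rose and 1 fell (6.72%, with 3.91% higher). Blocking on the replicate number at each time gave counts of 16 and 14 at 2 and 6 h. At 6 h MTHFD1L, SLC7A11, SLC7A5, SLC3A2, SLC1A5 and CTH were the 6 that lay above budesonide, by 0.49 to 1.35, and PPP1R15A lay 0.33 below it, a call lost without combination replicate 3 (-0.24, adjusted p = 0.246). At 18 h 0 of the 37 were called (0.651% of all genes; 5 had an unadjusted p under 0.05, and blocking called 2). Against formoterol at 1 h 1 gene fell (1.27% of all genes), at 2 h 3 rose and 2 fell (4.15%), at 6 h 4 rose and 7 fell (13.4%, with 7.85% lower), and at 18 h 4 rose and 15 fell (17.6%, with 8.66% lower). Blocking gave 5 calls at 1 h and 10 at 2 h. The shares of all genes in this paragraph come from the fit without a block. At 18 h the largest difference below formoterol was that of SLC7A5, at -1.62 ± 0.21 (adjusted p = 1.38e-08), and the largest above it that of GLUL, at 1.49 ± 0.10. The interaction was called for 0 of the 37 genes at 1 and 6 h (0.171% and 0.722% of all genes), with 0 and 1 at an unadjusted p under 0.05 in limma. Interactions not called do not show that the drugs' effects add.

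The turn from 6 to 18 h was tested as the effect at 18 h minus the effect at 6 h. For budesonide 6 genes moved down (4.24% of all genes were called, with 2.53% lower). For formoterol 6 moved down (1.4%, with 1.12% lower), and for the combination 16 moved down and 1 up (9.95%, with 5.15% lower). ASNS, PSAT1 and MTHFD1L were among those that moved down under all 3 treatments, and these comparisons share untreated arrays. An effect also moves when untreated cells do. From 6 to 18 h the untreated mean of ASNS went from 7.57 to 8.04, that with formoterol from 7.53 to 7.43 and that with budesonide from 7.45 to 7.15. The untreated means went from 8.85 to 8.94 for PSAT1 and stayed at 9.56 for MTHFD1L. For PSAT1 with budesonide the difference of -0.59 ± 0.17 (adjusted p = 0.0258) was not called in 6 of 16 fits without 1 array, such as that without budesonide replicate 1 at 6 h (-0.49, adjusted p = 0.102).

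Genes next to these in the pathway were given by lists. Of 11 eIF2 kinases and regulators, 2 fell with budesonide at 18 h, a share near the 18.3% of all genes called in that comparison (EIF2S1, the alpha subunit of eIF2, by 0.25 ± 0.07, and EIF2B3, a subunit of its exchange factor, by 0.26 ± 0.08). EIF2AK3, which encodes the eIF2 kinase PERK, was the 1 gene of this list called at 1 and 2 h and rose with the combination while neither single drug's change was called. Its mean at 2 h was 8.37 ± 0.08 (SD, n = 4) untreated, 8.59 ± 0.12 with budesonide, 8.66 ± 0.22 with formoterol and 9.97 ± 0.18 with both. The combination's arrays, at 9.70 to 10.10, lay above all others, the change from untreated cells was 1.60 ± 0.10, and the interaction was 1.09 ± 0.14 (adjusted p = 4.18e-07).

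Of the 19 cytosolic aminoacyl-tRNA synthetases measured of 20 listed, 7 fell and 1 rose with budesonide at 18 h (18.3% of all genes called) and 8 fell and 1 rose with the combination (21%). With formoterol at 18 h, when 1.11% of all genes were called, their differences lay between -0.22 and 0.11 and were not called. The largest falls with budesonide were those of YARS1 (-0.54 ± 0.09), TARS1 (-0.45 ± 0.07) and MARS1 (-0.43 ± 0.09), which charge tRNA with tyrosine, threonine and methionine. TARS1 had already fallen at 6 h, by 0.48 ± 0.07. The gene that rose was QARS1, for glutamine, by 0.35 ± 0.05.

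Of 11 further genes linked to ATF4, 2 rose and 1 fell with budesonide at 18 h (18.3% of all genes called). DDIT4, an inhibitor of mTORC1, and CEBPB, which encodes a partner of ATF4, rose with budesonide at all 4 times. At 18 h they were higher by 2.01 ± 0.15 and 1.47 ± 0.16. ATF3, a stress factor usually induced by ATF4, rose with formoterol by 1.95 ± 0.12 at 1 h and 1.81 ± 0.12 at 2 h and fell with budesonide by 0.59 ± 0.12 at 18 h. GDF15, a stress cytokine, rose with formoterol at 18 h by 0.95 ± 0.15. Of 15 other amino acid transporters, 1 rose and 2 fell with budesonide at 18 h, a share near that of all genes. SLC6A6, the taurine carrier, fell by 1.48 ± 0.12, SLC38A5, another glutamine carrier, by 0.68 ± 0.10, and SLC38A4 rose by 1.27 ± 0.18.

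SLC7A2, a cationic amino acid carrier like SLC7A1, rose most with both drugs. At 6 h its mean was 5.33 ± 0.14 (SD, n = 4) untreated, 6.52 ± 0.16 with budesonide, 6.40 ± 0.20 with formoterol and 8.74 ± 0.21 with both, and the interaction was 1.16 ± 0.21 (adjusted p = 0.000311). Of 12 endoplasmic reticulum chaperones and related genes, 1 rose and 2 fell with budesonide at 18 h, when 8.56% of all genes rose and 9.78% fell. HSPA5, the chaperone BiP, fell by 0.31 ± 0.07. HERPUD1, which serves degradation at that membrane, rose with the combination by 1.30 ± 0.13 at 1 h and 1.54 ± 0.13 at 2 h.

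Replicate 3 at 2 h stood apart for some of the 37 genes. In 11 of them it was the highest array in all 4 treatments, by 0.92 for SLC7A1, 0.77 for SLC7A5, 0.41 for PCK2, 0.35 for ATF4 and 0.35 for SLC1A4 over the mean of the other replicates. SLC7A1 at 2 h read 8.11, 8.05, 9.00 and 8.03 untreated and 8.53, 8.39, 9.58 and 8.47 with formoterol. Each formoterol array thus lay above the untreated array of its number, and the numbers paired these arrays. The difference of 0.44 ± 0.17 was not called in the limma fit without a replicate block (adjusted p = 0.172). That non-call does not show that formoterol left SLC7A1 unchanged. The share of all genes with their highest array in this replicate in all 4 treatments was not counted. By another measure, 1.98% of all genes were at least 0.5 higher in this replicate, and 2 of the 37 (5.41%) were. The 3' minus 5' difference of the beta-actin control probe sets, a measure of RNA quality, was also highest at 2 h in replicate 3, with a mean of 1.51, beside 1.40 in replicate 1. At the other times it was highest in replicate 1, at 1.61, 2.05 and 1.97. The same difference for the GAPDH control probe sets lay between 0.56 and 0.83 on the replicate 3 arrays at 2 h and between 0.10 and 0.35 on the other 2 h arrays, without overlap. Their part in the shift was not tested, and the shift is shared by the treatments compared.

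**Figure D5:**
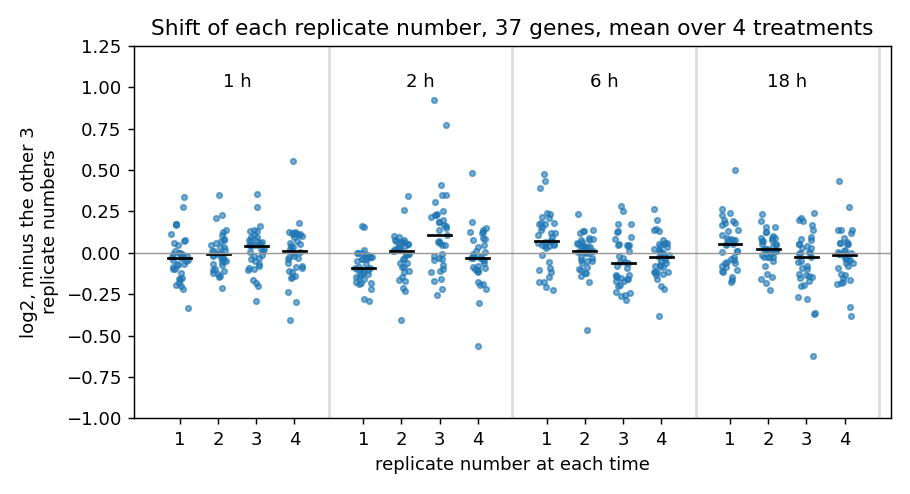
Shift of each replicate number at each time (horizontal axis) from the other 3 numbers, as a mean over the 4 treatments in log2 units (vertical axis); each point is 1 of the 37 genes and bars are medians. The 2 highest points, SLC7A1 (0.92) and SLC7A5 (0.77), belong to replicate 3 at 2 h.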

How the data were processed

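Each of the 64 arrays profiled RNA of 1 culture condition. The authors made the deposited log2 values, 1 per probe set and array, with RMA per the submitters' processing notes (no version stated). Whether 1 run covered all arrays was not stated. They were used as deposited. Of 49395 probe sets, 44994 had 1 gene symbol, 1832 several and 2569 none; the brightest probe set of each gene was kept, which gave 18132 genes. limma 3.58.1 (R 4.3.3) fitted 16 group means with an intensity trend over all genes (48 residual degrees of freedom), and p-values were adjusted by Benjamini-Hochberg within each of 28 comparisons. Errors are SE unless named otherwise. The code was tested on simulated data.

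The 39 genes, the pathway lists and the markers were chosen with earlier results of these data known. The value of every array was given for genes called against untreated cells with a change of at least 0.58, if a group's mean reached the median of all values, and also for some genes chosen after their values were seen, DDIT3 at 18 h and SLC38A1 among them. At most 3 genes with the largest called changes were named per list and comparison. Replicate numbers come from the titles. In 12 of 21 comparisons every same-numbered pair of arrays deviated together (correlation over 0.1) and the numbers were taken to pair them. The alternatives were blocking on the replicate number, array centring, repeated quantile normalisation, no dim genes, no trend, the mean of a gene's probe sets, leaving out the arrays with the highest beta-actin 3' to 5' difference, fitting compared arrays alone and leaving out each array.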

Additional observations from a re-analysis of the deposited data

Results flagged for a closer look

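For the 17 genes whose array values were given by rule, in 23 of 272 groups of 4 arrays, 1 array stood apart from the other 3 by Dixon's test, where chance gives about 1 in 20. Of these arrays, 10 were collected at 2 h, and 8 of the 10 were replicate 3. With budesonide at 2 h, replicate 3 read 5.45 for DDIT3, 8.96 for PSAT1, 8.82 for SLC7A1 and 7.63 for SLC1A4. For SLC7A1 the same replicate read 9.00 in untreated cells and 9.58 with formoterol. With the combination at 2 h it read 10.57 for SLC7A5 and 12.88 for SLC38A2. Replicate 2 at 2 h read 9.66 for STC2 in untreated cells and 11.65 for GLUL with budesonide.

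Other arrays that stood apart were spread over groups. For ASNS they were replicate 2 at 6 h with formoterol (7.34) and with both drugs (7.52), and replicate 1 with both at 18 h (7.17). For DDIT3 they were replicate 3 with both drugs at 6 h (5.23) and with formoterol at 18 h (5.45). SLC7A11 replicate 1 read 8.43 in untreated cells at 18 h, and SLC7A5 replicate 1 read 9.61 with both drugs at 6 h. Replicate 4 stood apart for SLC7A1 (7.69) and GLUL (10.42) with formoterol at 18 h, for SLC1A5 with both drugs at 18 h (6.65) and for SLC6A9 with formoterol at 1 h (4.90). NUPR1 read 5.05 on replicate 2 with budesonide at 1 h and 4.17 on replicate 3 with formoterol at 6 h.

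Over the same 17 genes, 22 of 119 tests of a difference between times or of the drugs' interaction were called in limma after adjustment over all genes. These genes were chosen for a called change of at least 0.58 on these arrays, so nothing is read from that share. Of all genes, 0.171% to 9.95% were called in these comparisons. The interaction was -0.52 for SLC38A2 at 2 h and 0.77 for ASNS at 18 h. From 6 to 18 h the budesonide effect moved by -0.77 for ASNS, -0.48 for TRIB3, -0.59 for PSAT1, -1.15 for MTHFD1L and -0.44 for GLUL, the last lost without untreated replicate 4 at 18 h (-0.39, adjusted p = 0.122) among others. The formoterol effect moved by -0.56 for ASNS, -0.98 for PSAT1, -1.34 for MTHFD1L, -0.86 for SLC7A11 and -0.89 for SLC3A2. The combination's effect moved by -0.57 for ASNS, -0.46 for TRIB3, -0.82 for PSAT1, -1.84 for MTHFD1L, -0.77 for SLC7A11, -1.51 for SLC7A5, -1.43 for SLC3A2, -0.74 for SLC1A4, -0.62 for SLC1A5 and 0.79 for NUPR1. The NUPR1 call was lost without combination replicate 4 at 18 h (0.60, adjusted p = 0.135).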

How the results depend on the processing

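Of 191 called changes over all comparisons, 0 reversed under any alternative, where each gene had a single value. Blocking on the number, no trend, no dim genes and fitting compared arrays alone leave the differences themselves unchanged. A reversal was therefore not possible in those settings. Separate probe sets were less uniform. Of 93 calls against untreated cells in genes with several probe sets, all probe sets pointed in the same direction in 81 and not in 12. With a replicate block at each time 190 of 190 were kept, and with a replicate block over all times 191. Without dim genes 191 were kept, with array centring 184, without the trend 182, with repeated quantile normalisation 180, with compared arrays alone 171, without the arrays of highest beta-actin difference 169 and with the mean of a gene's probe sets 149. The cause of these losses was not tested. Over single arrays left out, 1585 of 1776 were kept. Of the 110 calls against untreated cells, 26 were lost in at least 1 such fit. The counts over the 37 genes rest on 4 arrays a group, and probe sets near background limit what ALDH1L2, CHAC1 and SLC7A8 can show. Low values also bear on NUPR1 and SESN2. The mean of NUPR1 in untreated cells at 18 h and that of SESN2 with budesonide at 2 h were both 4.80. Each lay below the median of all values, 4.90.

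A replicate block at each time moved the number of the 37 genes called from 3 to 5 for budesonide at 1 h, from 9 to 17 for budesonide at 6 h, from 2 to 5 and from 7 to 12 for formoterol at 1 and 2 h, and from 3 to 10 for formoterol at 18 h. For the combination against budesonide it gave 3, 16, 14 and 2 at 1, 2, 6 and 18 h, and against formoterol 5 and 10 at 1 and 2 h. For the interaction it gave 1 at 6 h and 3 at 18 h. As a block over all times it gave 4 and 6 for formoterol at 1 and 18 h, 14 for budesonide at 6 h, 2, 10, 12 and 1 for the combination against budesonide at 1, 2, 6 and 18 h, 3 against formoterol at 1 h, and 3 for untreated cells at 18 against 1 h. In the 9 comparisons where the numbers were not taken to pair the arrays, budesonide at 6 h and formoterol at 18 h among them, 2 had all arrays closest to their own number, a hint from the data and not the design. A block at each time could not be fitted to the untreated comparison across times. The share of all genes called was not counted under these blocks or the alternatives below. Nothing particular to the 37 genes is therefore read from the moved counts.

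The mean of all probe sets gave 1 for budesonide at 1 h, 4 for formoterol at 2 h, 3 for the combination at 1 h, 3 for it against budesonide at 2 h, 0 and 3 for it against formoterol at 1 and 2 h, and 0 for the interaction at 2 h and for untreated cells. Repeated quantile normalisation and no trend each gave 0 for the combination against budesonide at 1 h and for the interaction at 2 h, and centring gave 2 against formoterol at 1 h. Without the arrays of highest beta-actin difference the counts were 3 for the combination against budesonide at 2 h and 0 for the interaction at 2 h. Compared arrays alone gave 2 and 3 against budesonide at 1 and 2 h, 2 and 3 against formoterol at 1 and 2 h, 14 for budesonide at 6 h, 2 for the interaction at 18 h and 0 for untreated cells. With each array left out, the counts ranged from 0 to 4, 5 to 6, 9 to 11 and 22 to 25 for budesonide at 1, 2, 6 and 18 h, from 1 to 2, 5 to 7, 5 to 8 and 2 to 3 for formoterol, and from 4 to 6, 7 to 11, 9 to 11 and 22 to 23 for the combination. Against budesonide they ranged from 0 to 1, 2 to 5, 6 to 8 and 0 to 0, against formoterol from 1 to 2, 4 to 6, 9 to 12 and 18 to 20, and for the interaction from 0 to 0, 0 to 1, 0 to 0 and 1 to 2. For untreated cells the range was 0 to 1.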
